A study of Oryza sativa with 4 samples.

Results

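Transcript levels in rice leaves were compared between the last days of a progressive drought, 3 d against 2 d without water. Each level is the read count of a gene sequence divided by all gene-mapped reads of its library and multiplied by 1000000 (CPM). When a locus had several transcripts, the transcript with the most reads over all 4 libraries represented it, and a locus was compared when its 2 d and 3 d counts added up to at least 50 reads. This left 25161 of 37869 loci, and the well-watered control took no part in the choice. A locus was called higher or lower at 3 d when its CPM ratio was 2 or more in that direction, so that log2 ratios from 1 upward counted as higher and those from -1 downward as lower. By this rule 2282 loci (9.07%) were higher and 7660 loci (30.4%) were lower.

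The plants were wild type rice (Oryza sativa cv. Ilmi, which the sample labels spell Illmi), grown for 5 weeks before water was withheld. Soil moisture was 10% at 2 d and 7% at 3 d. Each library pooled the leaves of 10 plants from 4 pots, so there was 1 library per condition, and no difference between days could be set against a spread between replicates. Intervals given here are 95% exact (Clopper-Pearson) intervals of a read ratio and cover counting error only. Day of sampling and severity of drought cannot be told apart in this design, and the hour of sampling was not given in the sources used here. Because whole leaves were sampled, fewer cells of a type and less RNA per cell cannot be told apart either.

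As soil dries, leaves lose turgor and roll, abscisic acid accumulates, and SnRK2-type kinases switch on genes for protective proteins such as dehydrins. When dehydration becomes severe, photosynthetic genes are shut down, chlorophyll and leaf proteins are broken down, and the released nitrogen and carbon can be exported from the leaf. Dehydrins are the late embryogenesis abundant (LEA) proteins best known from drying seeds, aquaporins are the water channels of plasma and vacuolar membranes, and small precursor RNAs give rise to the microRNAs that cut or silence target transcripts.

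The 4 libraries held between 52626188 and 60322263 gene-mapped reads, with 60322263 at 2 d and 56909968 at 3 d. The 10 most abundant transcripts took 2.40% of the reads at 2 d and 3.33% at 3 d, and the median locus had 132 and 76 reads. Leaf identity was checked with gene lists: loci for photosystem and light harvesting proteins took 3.83% of control reads, whereas the seed storage list stayed between 56.9 and 70.7 CPM in every library. The check is weaker for the libraries compared, where the photosystem list took 0.805% (8055.4 CPM) at 2 d and 0.274% (2734.8 CPM) at 3 d. The pollen and root lists, also picked by words of the annotation, stood higher, at 1489.5 to 2831.8 CPM and 554.2 to 985.8 CPM. Loci called abundant are those with many reads, with no adjustment for length. Counts at 2 d and 3 d below are preceded by those of the control and of 1 d, in that order.

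The shift between the days was broad and mostly downward on the CPM scale. The median log2 ratio of all loci was -0.46, which is 1.38-fold lower at 3 d, and the quartiles were -1.19 and 0.21. Loci called higher held 5.04% of the reads at 2 d and 14.9% at 3 d, while loci called lower held 16.1% and 5.24%. At least 8-fold differences were seen for 224 higher and 669 lower loci. The excess of lower loci depended on the scaling: with DESeq2 size factors the median moved to -0.0006 and 4213 loci were higher and 4653 lower, and with edgeR TMM factors 3918 were higher and 4959 lower. Lower calls with a log2 ratio above -1.46 come within 2-fold under the DESeq2 factors. Gene groups are therefore described below also relative to the median of all loci, a difference that no scaling changes. Counting error was small beside these differences, since the 6949 loci with at least 1000 reads in each library had intervals no wider than 0.25 on the log2 scale. The interval lay wholly past the threshold for 1627 of the higher and 5516 of the lower loci, and 2160 loci lay within 0.1 of a threshold.

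Weakly expressed loci were lower more often than abundant ones. When the loci were divided into 5 groups of equal size by mean CPM, 39.0% of the weakest group and 42.3% of the next were called lower, against 10.9% of the most abundant group, whose median log2 ratio was -0.01. Over 5 groups of equal size by transcript length the medians lay between -0.53 and -0.35, and the share called higher was 14.7% in the shortest and 5.31% in the longest group, against a range of 7.23 to 12.7% over the groups by mean CPM. Across the 12 chromosomes the share of lower loci ranged from 26.7% on chromosome 3 to 37.9% on chromosome 11.

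**Figure D1:**
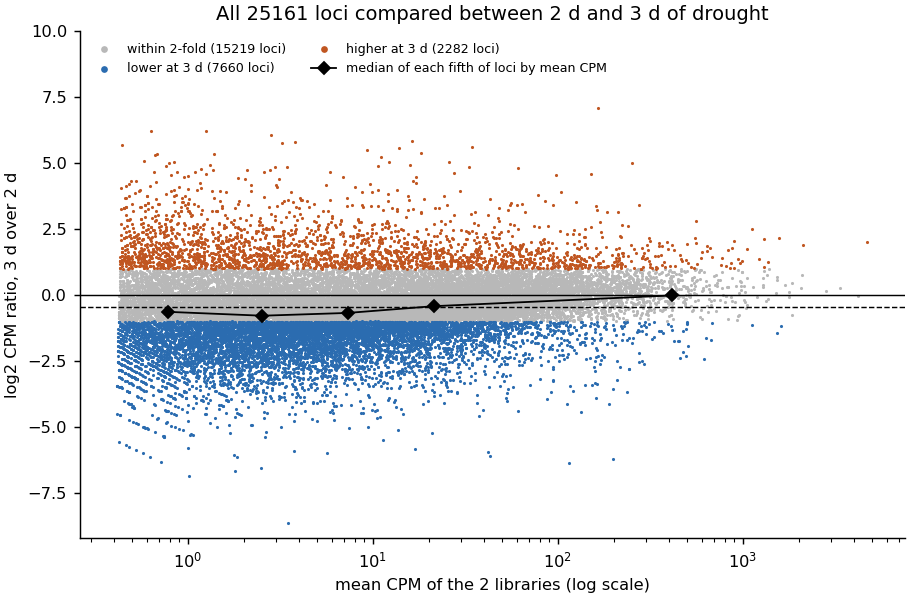
Log2 CPM ratio (3 d over 2 d, vertical axis) against the mean CPM of both libraries (horizontal log axis), 1 point per locus, with the 2282 higher loci in orange and the 7660 lower loci in blue. The dashed line is the median of all loci (-0.46), and diamonds join the medians of 5 equal groups of loci by mean CPM, from -0.64 in the weakest to -0.01 in the most abundant.

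Gene lists built from the annotation ranged from strongly lower to clearly higher. Counts of calls in a list, here and below, compare with 9.07% higher and 30.4% lower among all loci. The lowest medians belonged to photosystem and light harvesting proteins (-1.68), aquaporins (-1.62), Rubisco and the Calvin cycle (-1.38), NB-ARC resistance proteins (-1.25) and photorespiration (-1.11). At the other end stood loci named after plastid-encoded proteins (0.94), seed storage proteins (0.76 over the 9 of 62 loci compared, but 0.06 relative to all loci when 10 reads sufficed), LEA proteins and dehydrins (0.57) and WRKY factors (0.44). Of 121 gene ontology terms with at least 40 loci, only ATPase activity, response to stress and glycolysis had a median above 0 (0.11, 0.09 and 0.01) on the CPM scale, and the lowest were defense response (-1.30), ADP binding (-1.27), photosynthesis (-1.25) and protein folding (-0.85).

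**Figure D2:**
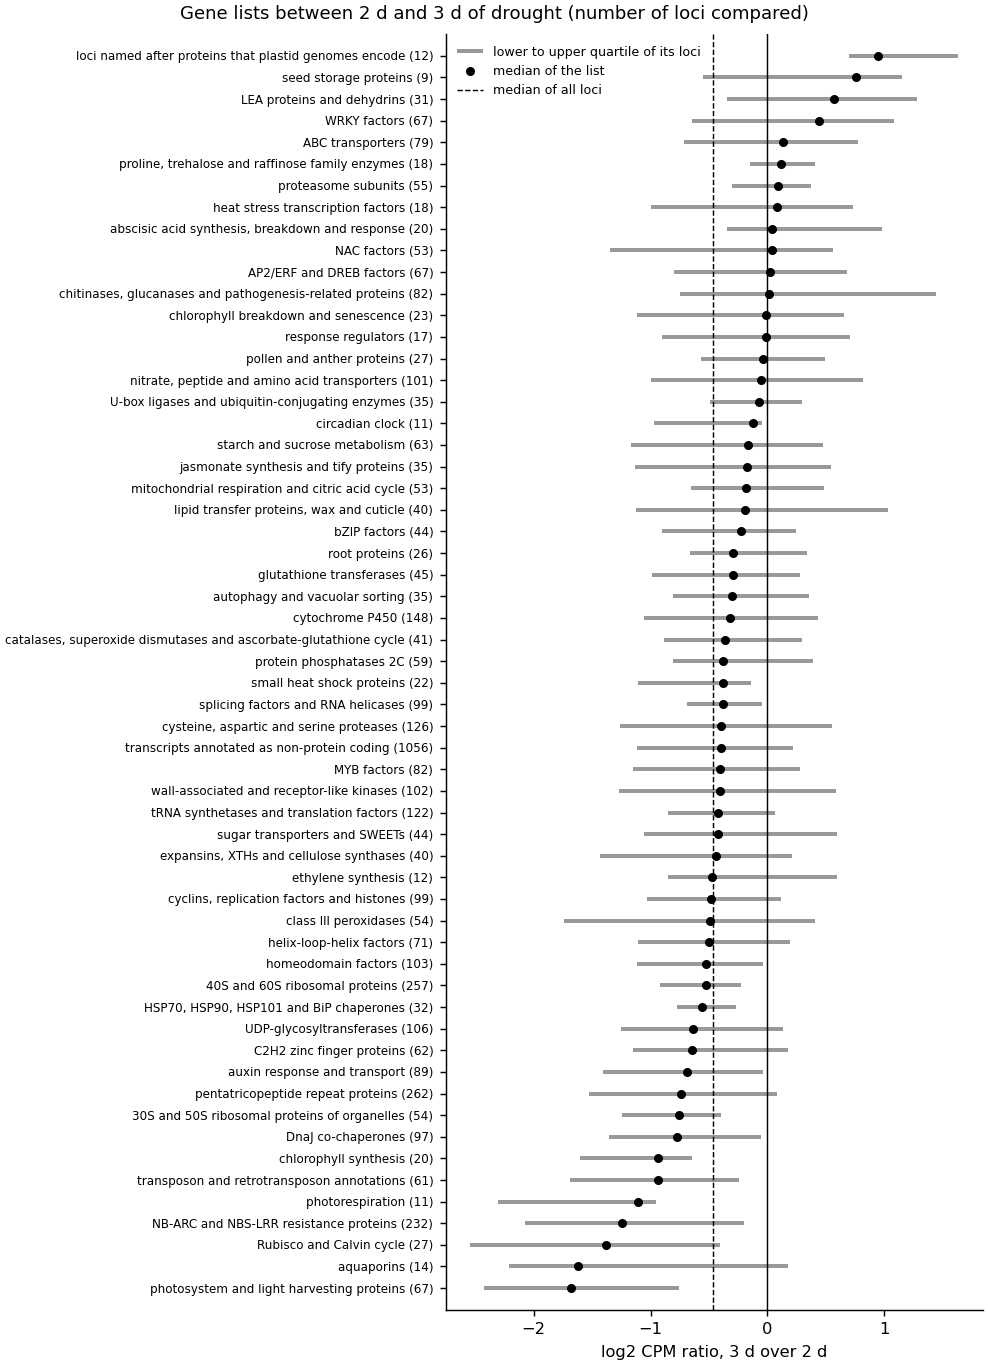
Log2 CPM ratio (3 d over 2 d) of 58 gene lists, with the median of each list as a point and its quartiles as a bar; the number of loci compared stands in parentheses. The dashed line marks the median of all loci (-0.46), and photosystem loci lie lowest (-1.68) while LEA proteins lie at 0.57.

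Dehydrins and other LEA proteins, which shield membranes and proteins during water loss, were more often higher than lower at 3 d. Of 31 loci compared, 10 were higher and 4 lower at 3 d, and the list median of 0.57 lay 1.04 above that of all loci. The dehydrin RAB21 (Os11g0454300) had 491, 1101, 54104 and 189760 reads, so that it was 3.72-fold higher (log2 ratio 1.89) with an interval of 1.88 to 1.91. Its neighbours RAB 16B (Os11g0454200) with 268, 741, 41563 and 100622 reads and RAB 16C (Os11g0454000) with 181, 399, 18253 and 55430 reads were 2.57-fold higher (log2 ratio 1.36) and 3.22-fold higher (log2 ratio 1.69). All 3 were already far above the control at 2 d and highest at 3 d. The fourth member of this cluster, RAB 16D (Os11g0453900), stayed level with 6, 7, 567 and 564 reads (log2 ratio 0.08, interval -0.09 to 0.25), as did Rab25 (Os01g0702500) with 6, 4, 996 and 771 reads.

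The most abundant dehydrin, Dip1 (Os02g0669100), a drought marker of the study, took 0.424% of all reads at 2 d and 0.418% at 3 d. It had 2832, 4810, 255513 and 237663 reads, and the log2 ratio of -0.02 lay within 2-fold on the CPM scale and above the median locus by 0.44. Other LEA loci diverged from it in both directions. An LEA repeat protein (Os03g0168100) had 55, 125, 7317 and 28702 reads and was 4.16-fold higher (log2 ratio 2.06), and the LEA protein D-34 locus Os12g0626500 went from 77 to 1144 reads (4, 9, 77 and 1144 reads in all libraries, log2 ratio 3.98, interval 3.64 to 4.33). In contrast, a further LEA repeat protein (Os03g0322900) peaked at 2 d with 31, 134, 15620 and 6068 reads and was 2.43-fold lower (log2 ratio -1.28). The desiccation-associated protein Os11g0167800, with 76609, 97680, 135556 and 46735 reads, was 2.74-fold lower (log2 ratio -1.45).

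SalT (Os01g0348900), a salt- and drought-inducible mannose-binding lectin, was among the loci with the largest gains in CPM. It had 273, 597, 20263 and 107804 reads and was 5.64-fold higher (log2 ratio 2.50), with 3 d the highest of the 4 libraries. Enzymes of compatible solutes, which lower the osmotic potential of cells, moved little by comparison: 1 of 18 loci was higher and 1 lower. The proline synthesis enzyme delta 1-pyrroline-5-carboxylate synthetase (Os05g0455500) had 2104, 1983, 13686 and 13795 reads (log2 ratio 0.10), and galactinol synthase (Os03g0316200), which starts raffinose synthesis, had 496, 571, 30436 and 16605 reads (-0.79). Trehalose-6-phosphate phosphatases split, with Os10g0553300 3.13-fold lower (211, 247, 9049 and 2731 reads) and Os02g0661100 4.02-fold higher (1176, 199, 329 and 1247 reads).

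**Figure D3:**
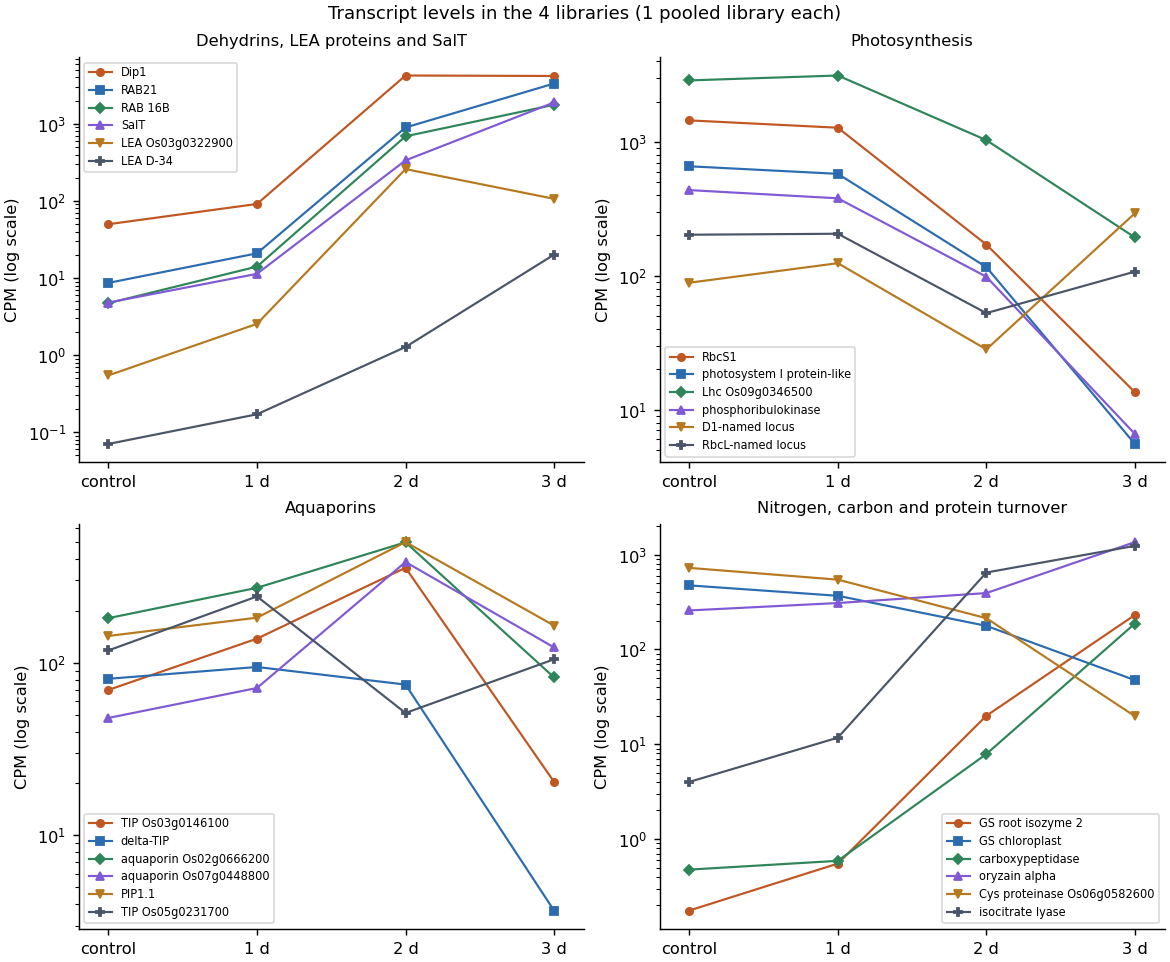
CPM (vertical log axis) of 24 loci in the control and after 1, 2 and 3 d of drought, each point 1 pooled library. RAB21 and SalT climb to 3 d while Dip1 stays level after 2 d, photosynthetic loci are lowest at 3 d except those named after plastid-encoded proteins, most aquaporins peak at 2 d, and glutamine synthetase root isozyme 2 is highest at 3 d, where the chloroplast isozyme is lowest.

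Molecular chaperones refold or hold damaged proteins, and their families differed. Among DnaJ co-chaperones 39 of 97 loci were lower and 4 higher, with a median -0.31 relative to that of all loci. Small heat shock proteins had 7 lower loci and 1 higher of 22, a share of lower loci (31.8%) near that of all loci. The list of HSP70, HSP90, HSP101 and BiP had 4 lower (12.5%, against 30.4% of all loci) and 1 higher of 32, and 27 within 2-fold. A low molecular weight heat shock protein (Os02g0758000) with 1041, 791, 2404 and 158 reads was 14.3-fold lower (log2 ratio -3.84), and Oshsp17.3 (Os03g0266900) with 161, 241, 2139 and 622 reads was 3.24-fold lower (log2 ratio -1.70). HSP90 (Os06g0716700, 16907, 15183, 31331 and 11420 reads) and the disaggregase ClpB (Os02g0181900, 954, 889, 1558 and 604 reads) were 2.59-fold and 2.43-fold lower, and these 4 named loci peaked at 2 d.

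A few chaperone loci went the opposite way. An HSP70 locus (Os03g0277300) had 42, 114, 1093 and 5880 reads and was 5.7-fold higher (log2 ratio 2.51), whereas the most abundant HSP70 (Os11g0703900, 69591, 71696, 87247 and 73947 reads) had a log2 ratio of -0.15. The highest ratio of all 25161 loci belonged to a DnaJ-type chaperone (Os04g0675400), which had 837, 2838, 145 and 18630 reads and was 136-fold higher (log2 ratio 7.09). It was lowest at 2 d, below the control, and highest at 3 d. Of 18 heat stress transcription factors, the regulators of chaperone genes, 3 were higher and 5 lower, with Os01g0571300 6.35-fold higher (20, 81, 947 and 5670 reads).

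Abscisic acid (ABA) genes lay above the median locus. Of 20 loci for its synthesis, breakdown and response, 5 were higher and 3 lower, and the list median lay 0.50 above that of all loci. SAPK9 (Os12g0586100) and SAPK1 (Os03g0390200), members of the rice SnRK2 kinase family, were 5.32-fold higher (log2 ratio 2.41) and 2.76-fold higher (log2 ratio 1.46). Their counts were 2101, 3553, 3280 and 16446 reads for SAPK9 and 557, 594, 4054 and 10555 reads for SAPK1. Both were highest at 3 d, and SAPK9 stood at 37.0, 67.5, 54.4 and 289 CPM. An ABA response element binding factor (Os01g0859300) had 0, 2, 234 and 656 reads and was 2.97-fold higher. Zeaxanthin epoxidase (Os04g0448900), an early enzyme of ABA synthesis, had 25777, 24009, 34304 and 42651 reads (log2 ratio 0.40), while an ABA aldehyde oxidase locus (Os07g0164900), named for the last step, was 6.43-fold lower (log2 ratio -2.69) with 5167, 5009, 5034 and 738 reads.

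Protein phosphatases 2C include negative regulators of ABA signalling. Of 59 loci, 11 (18.6%) were lower and 5 (8.5%) higher, against 30.4% and 9.07% of all loci. The most abundant were within 2-fold: Os01g0583100 with 4068, 4789, 45879 and 33116 reads (log2 ratio -0.39) and Os06g0698300 with 443, 742, 35548 and 50244 reads (0.58). Both had been raised at 2 d and remained far above the control at 3 d.

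Other hormone genes were mixed. ACC synthase makes the ethylene precursor, and its locus Os04g0578000 had 56, 18, 135 and 3655 reads and was 28.7-fold higher (log2 ratio 4.84), while ACC oxidase Os01g0580500, the enzyme of the last step, was 2.73-fold lower (log2 ratio -1.45) with 52, 17, 1046 and 361 reads. In the jasmonate list 7 of 35 loci were higher and 10 lower. Tify protein Os03g0180900, of the family that holds the jasmonate repressors, was 3.32-fold higher (log2 ratio 1.73) with 1011, 827, 11041 and 34617 reads, against a jasmonate-induced protein (Os12g0247700) that was 10.2-fold lower (log2 ratio -3.35) with 4910, 4802, 3660 and 339 reads. The most abundant lipoxygenase (Os12g0559200), with 101555, 118785, 139637 and 77565 reads, had a log2 ratio of -0.76.

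Auxin genes included 35 lower and 10 higher loci of 89. Their median relative to that of all loci was -0.23, but it turned to 0.06 when at least 200 reads were required. The axi 1-like locus Os05g0451900, with 131, 117, 252 and 22 reads, was 10.8-fold lower (log2 ratio -3.43). Loci annotated as response regulators, a class that includes cytokinin regulators, were divided, with 4 higher and 3 lower of 17. A type-A regulator (Os04g0494400, 7892, 7866, 3210 and 529 reads) was 5.72-fold lower. Os01g0971800, annotated as similar to ARR11 (353, 1021, 797 and 8889 reads), was 11.8-fold higher, and whether it acts in cytokinin signalling was not checked.

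Transcription factor families differed in their direction. WRKY factors, known from defence and senescence, had 19 higher and 15 lower of 67 loci and a median 0.90 above that of all loci. WRKY53 (Os05g0343400) had 17001, 6010, 9117 and 24074 reads and was 2.8-fold higher (log2 ratio 1.48), so it was below the control at 1 d and 2 d and above it at 3 d. Os12g0507300, with 3563, 3118, 10905 and 20537 reads, fell just short of a 2-fold rise (log2 ratio 1.00 after rounding) and was not called. WRKY30 (Os08g0499300) went against the family, 12.2-fold lower (log2 ratio -3.61) with 1795, 1964, 2337 and 181 reads.

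NAC factors, a plant family with many drought and senescence regulators, split. Of 53 loci, 10 (18.9%) were higher and 16 (30.2%) lower, against 9.07% and 30.4% of all loci. Os07g0684800 (314, 820, 16444 and 2366 reads) and Os12g0123700 (60, 268, 15867 and 3550 reads) were far above the control at 2 d and 6.56-fold and 4.22-fold lower at 3 d. By contrast Os03g0327800 (289, 623, 8680 and 20069 reads) and Os02g0579000 (249, 214, 2438 and 7340 reads) were highest at 3 d, 2.45-fold and 3.19-fold higher. The most abundant family member, Os01g0884300, had 8934, 6805, 93836 and 150225 reads (log2 ratio 0.76), and a further member, Os03g0815100, had 5113, 1124, 43871 and 51738 reads (0.32).

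AP2/ERF and DREB factors were evenly divided, with 14 higher and 13 lower of 67. The dehydration responsive element binding locus Os04g0549700 was flat until 2 d and 10.7-fold higher (log2 ratio 3.41) (19, 17, 22 and 221 reads, interval 2.78 to 4.12). A C2H2 zinc finger locus (Os01g0839100) with 14, 13, 214 and 3146 reads was 15.6-fold higher (log2 ratio 3.96), although 21 of the 62 loci of its class were lower. The helix-loop-helix list had 24 lower and 6 higher of 71, and the bZIP list 11 and 3 of 44. HOX22 (Os04g0541700), a homeodomain-leucine zipper factor, was level at its 2 d plateau with 367, 492, 26214 and 25298 reads (log2 ratio 0.03).

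Circadian clock loci, whose transcripts cycle over the day, included some of the widest differences. The locus annotated as similar to LHY (Os04g0583900) had 68, 89, 912 and 27844 reads and was 32.4-fold higher (log2 ratio 5.02), and a noncoding transcript with a neighbouring number (Os04g0584002) followed it with 3, 2, 91 and 2864 reads (log2 ratio 5.06); whether they overlap was not checked. A MYB factor annotated to the clock (Os08g0157600) took the opposite course with 2142, 1376, 25393 and 3481 reads and was 6.88-fold lower (log2 ratio -2.78). PRR73 (Os03g0284100, 29208, 27091, 29424 and 8784 reads) and the EARLY FLOWERING 4 locus (Os11g0621500, 2540, 3548, 1717 and 250 reads) were 3.16-fold and 6.48-fold lower.

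GIGANTEA (Os01g0182600), a clock-controlled flowering regulator, was level with 59395, 61463, 73570 and 65886 reads (log2 ratio -0.08). Of the 11 clock loci compared, 1 was higher and 3 were lower. Outside this list, the locus Os06g0298200, with 391, 370, 555 and 5853 reads, was 11.2-fold higher (log2 ratio 3.48). The thiamine synthesis locus thiC (Os03g0679700), with 24591, 28311, 144 and 1649 reads, was 12.1-fold higher (log2 ratio 3.60) after a steep low at 2 d. Whether the libraries were taken at the same hour is not given, and its part in these values was not tested.

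Most photosynthesis loci were lower. Photosystem and light harvesting loci took 3.83% of all reads in the control, 3.89% at 1 d, 0.805% at 2 d and 0.274% at 3 d. Of 67 such loci, 47 were lower and 2 higher, with a median of -1.68. Without the loci named after plastid-encoded proteins, a set made after values were seen, 47 of 61 were lower and 0 higher, so that leaving them out removed both higher calls. A photosystem I protein-like locus (Os07g0148900) had 37330, 30414, 7006 and 315 reads and was 21-fold lower (log2 ratio -4.39), and photosystem I subunit V (Os09g0481200) with 27954, 25642, 4180 and 230 reads was 17.1-fold lower (log2 ratio -4.10). The most abundant light harvesting locus, the chlorophyll a-b binding protein Os09g0346500, had 163647, 165182, 62271 and 11014 reads and was 5.33-fold lower (log2 ratio -2.42). Levels at 3 d were the lowest of the 4 libraries in each case.

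Of 27 Rubisco and Calvin cycle loci, which fix carbon, 16 were lower and 3 higher, with a median of -1.38. Leaving out the same set removed all 3 higher calls, and 16 of 23 loci were then lower. RbcS1 (Os12g0274700), the small subunit of Rubisco and a drought marker of the study, had 82272, 67264, 10316 and 768 reads and was 12.7-fold lower (log2 ratio -3.66). A second small subunit locus (Os12g0291100) with 130577, 117442, 26509 and 1953 reads and phosphoribulokinase (Os02g0698000), which regenerates the CO2 acceptor, with 24777, 19962, 5932 and 374 reads were 12.8-fold and 15-fold lower. Rubisco activase (Os11g0707000) was little changed between 1 d and 2 d, with 40743, 22048, 22204 and 1768 reads, and had a log2 ratio of -3.57. Because small subunit genes are near-identical copies, reads may be split between them. Photorespiration, which recycles the product of Rubisco's oxygenase reaction, had 7 of 11 loci lower and none higher, and its glycine decarboxylase P subunit (Os06g0611900, 58930, 60892, 16272 and 2747 reads) was 5.59-fold lower.

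Loci whose names match proteins encoded in plastid genomes were grouped after their values were seen, and their counts are a description only. Of 12 compared, 6 were higher and 0 lower, and together they took 0.0934, 0.1, 0.0363 and 0.12% of the reads of the control, 1 d, 2 d and 3 d libraries. The locus named after the photosystem II protein D1 (Os04g0473150) had 5032, 6535, 1700 and 16674 reads and was 10.4-fold higher (log2 ratio 3.38). Its neighbour named after a subunit of the plastid NADH dehydrogenase (Os04g0473025) had 7213, 8756, 2617 and 21720 reads and was 8.8-fold higher (log2 ratio 3.14), and a locus named after the photosystem II protein L (Os03g0667201) had 239, 219, 69 and 330 reads and was 5.07-fold higher (log2 ratio 2.34). Loci named after the large subunit of Rubisco (Os10g0356000 and Os12g0207600), with 11499, 10845, 3172 and 6112 reads and 7353, 6833, 1975 and 3902 reads, were 2.04-fold and 2.09-fold higher. All of these were lowest at 2 d. Nuclear genomes carry copies of plastid DNA, and reads of the nuclear and the plastid copy cannot be told apart in these counts.

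**Figure D4:**
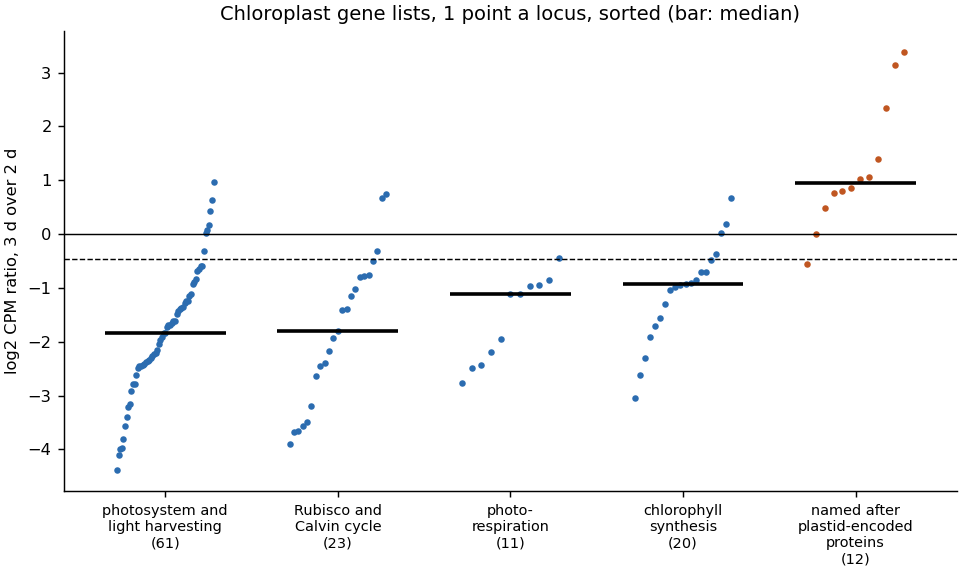
Log2 CPM ratio (3 d over 2 d) of every compared locus in 5 chloroplast gene lists, sorted within each list, with bars at the list medians and the dashed line at the median of all loci (-0.46). The loci named after plastid-encoded proteins (orange, 12 loci) were set apart after their values were seen, 6 of them lie at 1 or above, and the 61 photosystem loci left centre on -1.83.

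Of 20 chlorophyll synthesis loci, 8 were lower and none higher. Geranylgeranyl reductase (Os02g0744900), which supplies the chlorophyll side chain, had 24928, 22192, 1843 and 210 reads and was 8.28-fold lower (log2 ratio -3.05), and magnesium chelatase subunit H (Os03g0323200) with 30506, 31347, 1437 and 274 reads was 4.95-fold lower. Both had their largest decrease between 1 d and 2 d. Chlorophyll breakdown and senescence loci were less uniform, with 4 higher and 7 lower of 23. Chlorophyll b reductase (Os01g0227100), the first enzyme of chlorophyll b degradation, had 15118, 17111, 60619 and 96480 reads (log2 ratio 0.75), and a hydrolase annotated to chlorophyll degradation (Os06g0354700) had 9011, 6592, 54092 and 64760 reads (0.34). An exception was the locus for pheophorbide a oxygenase (Os03g0805600), the enzyme that opens the chlorophyll ring, which was 2.21-fold lower (log2 ratio -1.14) with 19969, 15722, 16528 and 7061 reads.

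The 2 lists of ribosomal proteins lay on either side of the share of lower loci among all loci (30.4%). Among 30S and 50S ribosomal proteins 21 of 54 loci (38.9%) were lower and none higher, with a median -0.30 relative to that of all loci, while the 257 loci of the 40S and 60S list had 55 lower (21.4%), 2 higher and a median -0.07 relative to it. The 40S and 60S list was picked by words of the annotation and is not purely cytosolic ribosomal proteins by name. It also holds an S15 containing protein (Os03g0293850, log2 ratio -4.58) and an S5 domain 2-type fold protein (Os02g0141300, 0.65). The chloroplast ribosomal protein L21 locus (Os02g0259600) had 7577, 5693, 486 and 85 reads and was 5.39-fold lower (log2 ratio -2.43). Pentatricopeptide repeat proteins, which process organelle RNA, were lower at 106 of 262 loci and higher at 27. Among members with at least 200 reads the lowest ratio was that of Os11g0661000 with 1569, 1609, 1020 and 43 reads, 22.4-fold lower.

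Protein degradation genes diverged. Proteasome subunits formed a narrow group, with quartiles of -0.31 and 0.38, with 0 of 55 loci higher and 6 lower and a median 0.56 above that of all loci. The 20S beta 5 subunit (Os06g0153800), a catalytic subunit, had 4344, 3708, 10028 and 16314 reads (log2 ratio 0.79). Among 126 cysteine, aspartic and serine proteases 17 were higher and 35 lower. A serine carboxypeptidase (Os05g0582500) had 27, 31, 475 and 10648 reads and was 23.8-fold higher (log2 ratio 4.57). Oryzain alpha (Os04g0650000), a papain-type cysteine protease, with 14592, 16206, 23650 and 76930 reads was 3.45-fold higher, and the aspartic protease Os05g0137400 with 39509, 36074, 51112 and 100343 reads was 2.08-fold higher.

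Other proteases were lower by similar factors. The papain-type protease Os01g0613800 had 406, 208, 866 and 25 reads and was 32.7-fold lower (log2 ratio -5.03), and the cysteine endopeptidase Os01g0907600, nearly silent before 2 d, had 3, 9, 1057 and 92 reads and was 10.8-fold lower (log2 ratio -3.44). The abundant cysteine proteinase Os06g0582600 had a lower count in each successive library, with 41011, 28589, 12854 and 1123 reads, and was 10.8-fold lower. Autophagy and vacuolar sorting loci had 8 lower (22.9%) and 1 higher (2.86%) of 35, both below the shares of all loci (30.4% and 9.07%).

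Nitrogen assimilation differed by isozyme. Glutamine synthetase fixes ammonium into glutamine, and its root isozyme 2 locus (Os03g0712800) had 10, 29, 1202 and 13111 reads and was 11.6-fold higher (log2 ratio 3.53). The root isozyme locus Os03g0223400 with 1170, 838, 955 and 4182 reads was 4.64-fold higher (log2 ratio 2.21), whereas the chloroplast isozyme (Os04g0659100), which recaptures photorespiratory ammonium, was 3.74-fold lower (log2 ratio -1.90) with 26802, 19317, 10673 and 2695 reads.

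Transporters of nitrate, peptides and amino acids had 23 higher and 25 lower of 101 loci, a median 0.41 above that of all loci. An amino acid transporter-like locus (Os02g0191300) had 749, 863, 31387 and 68988 reads and was 2.33-fold higher (log2 ratio 1.22), and Os08g0127100, barely changed until 2 d, had 4315, 2744, 3639 and 21773 reads and was 6.34-fold higher (log2 ratio 2.66). The lysine breakdown enzyme lysine ketoglutarate reductase (Os02g0783700), with 208, 394, 16499 and 33061 reads, was 2.12-fold higher.

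Enzymes of fatty acid breakdown formed no list, and those named here were in part chosen after their values were seen. The peroxisomal beta-oxidation multifunctional protein (Os02g0274100) had 7848, 9060, 48596 and 109006 reads and was 2.38-fold higher (log2 ratio 1.25), acyl-CoA oxidase (Os11g0605500), the first enzyme of the same pathway, had 2525, 2161, 8155 and 17518 reads (1.19), and 3-ketoacyl-CoA thiolase (Os02g0817700), its last, had 31010, 22096, 74911 and 103845 reads (0.56). Isocitrate lyase (Os07g0529000) and malate synthase (Os04g0486950), the enzymes particular to the glyoxylate cycle, had 227, 617, 38951 and 70254 reads and 50, 146, 10835 and 12732 reads, with log2 ratios of 0.93 and 0.32. Both had low counts until 1 d and were within 2-fold of their 3 d level at 2 d, isocitrate lyase only narrowly.

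In the list of respiration and citric acid cycle loci, an NADP-isocitrate dehydrogenase locus (Os01g0654500, 18650, 14981, 19523 and 48769 reads) was 2.65-fold higher. An aconitate hydratase locus annotated as cytoplasmic (Os03g0136900, 6059, 5007, 34047 and 65197 reads) was 2.03-fold higher. Neither name places its enzyme in the mitochondrion. The cyanide-resistant oxidase Os04g0600200, an alternative end of mitochondrial electron transport, was 3.38-fold higher (log2 ratio 1.76) with 375, 362, 1843 and 5882 reads. The respiration list as a whole had 5 higher and 9 lower of 53.

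Starch and sucrose metabolism had 19 lower and 5 higher of 63 loci, a share of lower loci (30.2%) near that of all loci, and a median 0.29 above that of all loci. ADP-glucose pyrophosphorylase (Os01g0633100), the committed enzyme of starch synthesis, had 4889, 4633, 1769 and 269 reads and was 6.2-fold lower (log2 ratio -2.63), and granule-bound starch synthase Ib (Os07g0412100) with 7294, 2976, 10173 and 1970 reads was 4.87-fold lower. A neutral invertase-like locus (Os01g0332100), which splits sucrose, was 3.25-fold higher (log2 ratio 1.70) with 38439, 28798, 23654 and 72485 reads. Of 44 sugar transporters 10 were higher and 13 lower, with the hexose transporter Os03g0218400 2.43-fold higher (4125, 2924, 34739 and 79749 reads) and the sugar transporter Os10g0360100 11.7-fold higher (8, 8, 115 and 1272 reads).

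Aquaporins were mostly lower at 3 d. Of 14 loci compared, 8 were lower and 3 higher, with a median of -1.62, which is -1.16 relative to that of all loci. A tonoplast intrinsic protein (Os03g0146100), a water channel of the vacuole, had 3953, 7265, 21438 and 1163 reads and was 17.4-fold lower (log2 ratio -4.12). The delta-tonoplast intrinsic protein (Os06g0336200) was level until 2 d, with 4583, 4978, 4513 and 209 reads and a log2 ratio of -4.35. The tonoplast protein Os01g0975900, annotated as similar to a maize channel, had 9653, 14405, 48145 and 11951 reads and was 3.8-fold lower.

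Among plasma membrane and unspecified channels, Os02g0666200 had 10297, 14314, 30114 and 4686 reads and was 6.06-fold lower (log2 ratio -2.60). Os04g0559700 (8119, 9611, 30189 and 9358 reads) and Os07g0448800 (2720, 3761, 23143 and 6989 reads) were 3.04-fold and 3.12-fold lower, so that each peaked at 2 d, and only Os07g0448800 remained well above its control count at 3 d. A pair of neighbouring tonoplast loci, Os05g0231700 and Os05g0231600, had the mirror pattern, lowest at 2 d with 6696, 12759, 3089 and 5962 reads and 1923, 3564, 946 and 1947 reads, and both were about as high at 3 d as in the control. Their log2 ratios were 1.03 and 1.13.

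Growth genes lay close to the median locus. Expansins, xyloglucan-modifying enzymes and cellulose synthases had 13 lower and 4 higher of 40, and cyclins, replication factors and histones 26 and 11 of 99, with medians 0.02 and -0.02 relative to that of all loci. Linker histone H1 (Os03g0799000), with 3690, 6236, 772 and 78 reads, was 9.34-fold lower (log2 ratio -3.22), and the cyclin Os05g0237100 with 929, 969, 242 and 17 reads was 13.4-fold lower (log2 ratio -3.75). Lipid transfer and cuticle loci were spread widely, from the 3-ketoacyl-CoA synthase Os02g0731900 (387, 382, 209 and 8 reads, log2 ratio -4.62, interval -5.85 to -3.62) to the lipid transfer protein Os10g0504900, which had 0, 0, 5 and 316 reads and a log2 ratio of 6.07 (interval 4.83 to 7.70).

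Defence genes separated by kind. NB-ARC and NBS-LRR proteins, the intracellular immune receptors, were lower at 131 of 232 loci and higher at 14, with a median -0.78 relative to that of all loci. An NBS-LRR locus (Os06g0287700) had 14621, 12887, 870 and 46 reads and was 17.8-fold lower (log2 ratio -4.16), and Os05g0380300 with 896, 1654, 577 and 20 reads was 27.2-fold lower (log2 ratio -4.77) (interval -5.49 to -4.13). The best expressed resistance protein, ADR1-like Os12g0586000, had 8280, 6011, 12125 and 19071 reads and a log2 ratio of 0.74.

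The list of chitinases, glucanases and pathogenesis-related proteins, some of which attack microbial walls, leaned the other way in counts, with 27 higher and 15 lower of 82. Its median was 0.01, which is 0.48 above that of all loci, and its summed level was 3692.3 CPM at 2 d and 3538.5 CPM at 3 d. Its members with the most reads, the Bowman Birk trypsin inhibitors Os01g0124000 and Os01g0124200, had log2 ratios of -0.14 and -0.42. A chitinase (Os04g0493400) had 76, 40, 34 and 1822 reads and was 56.8-fold higher (log2 ratio 5.83) (interval 5.34 to 6.36), and chitinase 2 (Os10g0416800) with 6, 35, 95 and 1793 reads had a log2 ratio of 4.32. The beta-1,3-glucanase Os01g0944700, with 79, 51, 36 and 748 reads, was 22-fold higher (log2 ratio 4.46). Class III peroxidases, which are secreted, had 21 lower and 8 higher of 54, with a median -0.03 relative to that of all loci. A run of neighbouring peroxidase loci included the lowest ratio of all loci, with Os07g0677200 20.3-fold lower (log2 ratio -4.35) (4524, 2215, 1142 and 53 reads), Os07g0677400 10.1-fold lower (2050, 1082, 353 and 33 reads) and Os07g0677500 left with 1 read at 3 d (537, 156, 418 and 1 reads, log2 ratio -8.62, interval -13.93 to -6.14).

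Phenylalanine ammonia-lyase is the first enzyme of the phenylpropanoid pathway, which feeds lignin and defence compounds. Its loci given here were named after their values were seen, and no list of the pathway was compared. Phenylalanine ammonia-lyase Os02g0627100 had 3433, 1876, 1491 and 89 reads and was 15.8-fold lower (log2 ratio -3.98), while Os02g0626100 with 6372, 6203, 3895 and 12701 reads was 3.46-fold higher (log2 ratio 1.79). Laccase-25 (Os12g0257600), of a family that oxidises lignin units, had 8, 36, 82 and 3817 reads and was 49.3-fold higher (log2 ratio 5.62).

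Antioxidant enzymes were mixed. Catalase B (Os06g0727200), which removes hydrogen peroxide in peroxisomes, was 2.47-fold higher (log2 ratio 1.31) with 2281, 2859, 16269 and 37930 reads, and cytosolic glutathione reductase (Os02g0813500) had 3649, 3505, 27153 and 31360 reads (log2 ratio 0.29). The chloroplast iron superoxide dismutase (Os06g0115400), already at 179 reads at 2 d, had 2873, 2182, 179 and 31 reads and was 5.45-fold lower (log2 ratio -2.45). Over the list 6 were higher and 9 lower of 41. Oxalate oxidase 1 (Os03g0693700), a germin that releases hydrogen peroxide from oxalate, with 2, 10, 130 and 2992 reads was 24.4-fold higher (log2 ratio 4.61). Metallothioneins, small metal-binding proteins, went both ways: Os03g0288000 had 3, 16, 51 and 2034 reads and was 42.3-fold higher (log2 ratio 5.40), and the far more abundant Os01g0200700 had 260224, 272397, 134609 and 55861 reads and was 2.27-fold lower (log2 ratio -1.18).

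Several of the deepest losses with a named protein belonged to loci that were highest at 2 d. A locus similar to fructosyltransferase (Os02g0106100) had 86, 293, 23624 and 300 reads and was 74.3-fold lower (log2 ratio -6.22), an FKBP-type isomerase (Os04g0352400) had 15, 33, 1602 and 44 reads and was 34.4-fold lower (log2 ratio -5.10), and the CBL-interacting kinase Os01g0206700, of a family that relays calcium signals, had 1140, 2425, 4986 and 76 reads and was 61.9-fold lower (log2 ratio -5.95). For these 3 loci the 3 d count was closer to the control than to 2 d, but that of the kinase lay far below its control (log2 ratio of 3 d over control -3.91). Others were lower at 2 d than in the control already: a pterin dehydratase family protein (Os03g0100200) had 6580, 6305, 2000 and 33 reads and was 57.2-fold lower (log2 ratio -5.84), and a fructose-bisphosphate aldolase (Os12g0169600) had 12033, 11052, 2444 and 61 reads and was 37.8-fold lower (log2 ratio -5.24).

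In absolute CPM the largest loss was that of the metallothionein Os01g0200700 given above, and other large losses were an aldo/keto reductase (Os07g0142900, 93833, 89913, 61875 and 17917 reads, log2 ratio -1.70), a cytochrome P450 (Os02g0817900, 78371, 63459, 49444 and 9296 reads, -2.33) and its neighbour Os02g0818000 (74578, 59897, 46468 and 8396 reads, -2.38). Counts of these last neighbours ran so close together in all 4 libraries that shared reads cannot be told apart from separate transcripts.

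The largest gain in CPM was at a locus annotated only as a conserved hypothetical protein (Os03g0690700), with 309551, 354260, 112042 and 428128 reads. It was 1 of 12 abundant, unrelated loci picked out after their values were seen for a common profile: alike in the control and 1 d libraries, lower at 2 d (log2 ratios of 2 d over 1 d between -1.98 and -1.64) and higher again at 3 d (log2 ratios of 3 d over 2 d between 1.77 and 2.17). The values that chose them are a description only. Together they took 1.44, 1.69, 0.467 and 1.91% of the reads of the control, 1 d, 2 d and 3 d libraries, and their gene sequences were 3798 to 19239 bases long. Examples are the H1flk-like locus Os01g0774500 (101379, 91111, 29055 and 120044 reads) and the locus Os06g0517500 (105686, 113247, 34476 and 145544 reads). A pentatricopeptide repeat locus, Os02g0290000, with 41134, 40251, 13650 and 50622 reads, belongs to them.

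Transcripts of the same locus had like ratios. In 3103 loci with at least 2 transcripts of 500 reads or more, 0 had 1 transcript called higher and another called lower, and 19 had transcripts more than 1 apart on the log2 scale. Transcripts of a locus can share exons, so a read may have been assigned to either transcript.

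Noncoding RNAs were counted in a separate table with far fewer reads, 35117 at 2 d and 28354 at 3 d. On the CPM scale of the gene libraries, 205 RNAs had at least 20 reads in both days together, of which 13 (6.34%) were higher and 85 (41.5%) lower. The C/D box small nucleolar RNAs, guides of ribosomal RNA methylation, had 34 lower and 1 higher of 61 with a median of -1.11. Precursors of microRNAs had 33 lower and 6 higher of 101 with a median of -0.59. Both signal recognition particle RNAs, which target proteins to the endoplasmic reticulum, were higher, with 84 reads at 2 d against 520 at 3 d and 77 against 510.

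Mature sequences from the study's supplementary sheet were found for 33 of the 101 precursors, and those of the 7 seeds that at least 2 of these precursors share are shown to group the precursors. The sheet lists miRNAs that the study picked from these libraries, so the calls within a family are not independent of that choice. The seed (bases 2 to 8) is in capitals, and where the sheet gives a pair of sequences, the first is shown for mir-156f and the second for mir-169f, the members that share a seed.
mir-399d: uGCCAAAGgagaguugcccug
mir-399k: uGCCAAAGgaaauuugccccg
mir-156d, mir-156f and mir-156j: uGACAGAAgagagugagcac
mir-439b, mir-439e and mir-439i: uGUCGAACcgcgguuguucga
mir-818a, mir-818b and mir-818d: aAUCCCUUauauuaugggacgg
mir-814a and mir-814c: cACUUCAUaguacaacgaaucu
mir-815b and mir-815c: aAGGGGAUugaggagauuggg
mir-169b: cAGCCAAGgaugacuugccgg
mir-169f: uAGCCAAGgaugacuugccua
mir-169h and mir-169m: uAGCCAAGgaugacuugccug

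The miR399 family, known to target a phosphate-homeostasis ubiquitin-conjugating enzyme, shares the seed GCCAAAG, and both of its compared precursors were higher. Pre-mir-399d had 2, 0, 9 and 149 reads (log2 ratio 4.13, interval 3.17 to 5.29) and pre-mir-399k had 12, 10, 154 and 354 reads (1.28, interval 1.01 to 1.57). In the gene table a phosphate transporter annotated to root-to-shoot transfer (Os02g0809800) was 4.36-fold higher (log2 ratio 2.12) with 128, 71, 565 and 2325 reads. The transporter was named through the root list, and a link to miR399 was not tested. No value is given here for the target enzyme itself. Pre-mir-415, with 32, 15, 22 and 209 reads, was also higher (log2 ratio 3.33, interval 2.70 to 4.04).

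The miR156 family targets squamosa promoter-binding-like factors, which promote the adult phase and flowering. Pre-mir-156j had 55, 57, 103 and 3 reads (log2 ratio -5.02, interval -7.32 to -3.43) and pre-mir-156d had 131, 142, 136 and 16 reads (log2 ratio -3.0, interval -3.85 to -2.25), so both were low only at 3 d. Pre-mir-156f, which gives the same mature sequence, was not called and had 265, 242, 116 and 77 reads (-0.51, interval -0.94 to -0.08). A squamosa promoter-binding-like protein 3 locus (Os02g0139400) was lower too, 8.88-fold lower (log2 ratio -3.15) with 2474, 3070, 2418 and 257 reads. This locus was named after its value was seen. The factors were not compared as a list, so it does not stand for the family. All 3 compared precursors with the mir-439 sequence were lower, with log2 ratios of -1.84, -3.82 (2 reads at 3 d, interval -6.93 to -1.84) and -2.06, and so were the 3 with the mir-818 sequence, with -1.10, -2.28 and -1.62. Pre-mir-818b was the most read of these with 599, 590, 289 and 56 reads, whereas pre-mir-818e, named for the same family but with no sequence matched, had 824, 918, 1275 and 956 reads (-0.33). Both mir-814 precursors (-1.43 and -2.17) and both mir-815 precursors (-1.68 and -1.57) were lower. The mir-169 seed was divided, with mir-169b (3 reads at 3 d, log2 ratio -3.03, interval -5.40 to -1.33) and mir-169m (-1.50) lower, mir-169h (0.46) within 2-fold and mir-169f, with 0, 1, 7 and 32 reads, higher (2.28, interval 1.07 to 3.70).

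**Figure D5:**
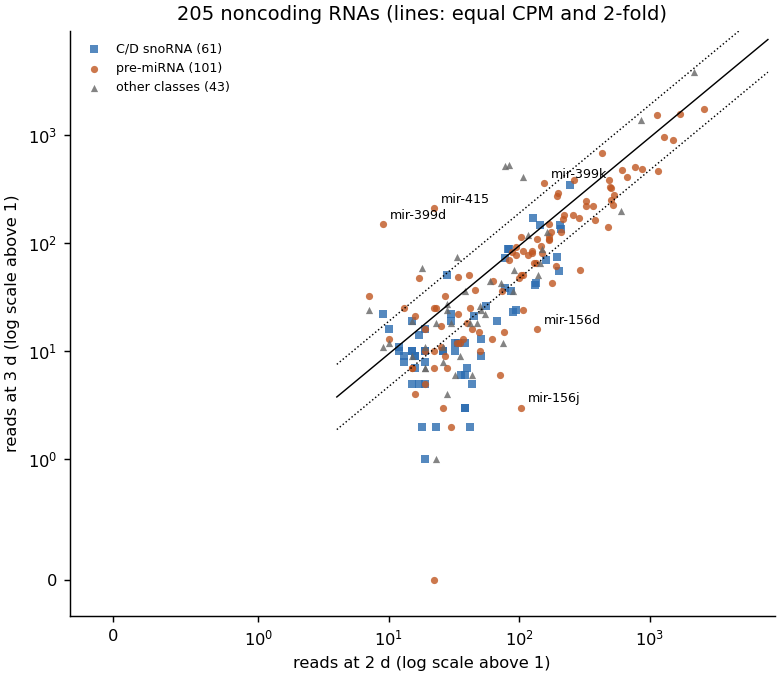
Reads at 3 d against reads at 2 d (both axes logarithmic above 1 read) for 205 noncoding RNAs, 1 point each, by class. The solid line marks equal CPM and the dotted lines 2-fold; pre-mir-399d (9 and 149 reads) lies far above the band and pre-mir-156j (103 and 3 reads) far below it.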

How the data were processed

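Leaf RNA of the control and of 1, 2 and 3 d of drought was sequenced as strand-specific single-end libraries, 1 pooled library each. The authors trimmed the reads, removed duplicates, which can limit the counts of abundant transcripts, and mapped them with the CLC mapping tool to 44553 annotated gene sequences and, separately, to 949 noncoding RNAs. The deposited values used here are these read counts; whether counting used strand was not given in the sources used here. Deposited normalized and ratio columns were not used. CPM used the column sums (52626188 to 60322263 reads, the depth of each library), a count of 0 was set to 3 reads, and intervals and this floor cover counting error only. With 1 library per condition no test between conditions was possible, and no p-value is given. Noncoding RNAs needed 20 reads and used the same column sums.

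Loci were named by a rule: in each of 58 lists the 4 largest ratios with at least 200 reads and the 2 loci with most reads; the 15 highest and 15 lowest named proteins with at least 500 reads; the 12 largest CPM gains and losses; and Dip1 and RbcS1. The following loci were named after their values were seen: Os11g0453900, Os01g0702500, Os03g0322900, Os03g0390200, Os03g0180900, Os03g0327800, Os02g0579000, Os06g0298200, Os03g0679700, Os10g0356000, Os12g0207600, Os03g0805600, Os06g0582600, Os04g0659100, Os02g0783700, Os11g0605500, Os02g0817700, Os07g0529000, Os04g0486950, Os04g0600200, Os07g0448800, Os05g0231700, Os05g0231600, Os02g0627100, Os02g0626100, Os06g0727200, Os02g0139400. The loci and lists were chosen with earlier results of these data known. The plastid-named list, the 12 parallel loci and exclusions of false matches from 9 lists were also made after values were seen. Alternatives were edgeR TMM and DESeq2 scaling, raw counts, other read minimums, other treatment of transcripts and other call thresholds. Tools were Python 3.11.15, numpy 2.4.6, pandas 2.3.3, scipy 1.17.1, matplotlib 3.10.9, R 4.3.3, edgeR 4.0.16 (TMM factors only) and DESeq2 1.42.0 (size factors only). The calculations were tested on simulated data.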

Additional observations from a re-analysis of the deposited data

How the results depend on the processing

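With no replicates the limits are those of 1 library a day, and depth limits loci with few reads. No paired analysis was possible because each condition had 1 library. Relative to 2282 higher and 7660 lower loci and a median of -0.46, scaling made the largest difference: 3918 loci higher at 3 d, 4959 loci lower at 3 d and a median of -0.0541 with edgeR TMM factors, and 4213, 4653 and -0.0006 with DESeq2 factors, by the construction of these factors, which centre the bulk of genes. The median was -0.55 without scaling, -0.41 with column sums that left out the 100 most abundant transcripts, -0.43 with at least 200 reads and -0.43 with 1 read in each library, where 3775 loci were higher. A CPM ratio of 4 left 667 higher and 2511 lower loci. All other alternatives kept these counts within 1.5 times.

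Of 58 lists, 12 had a median above 0 in CPM and 38 with DESeq2 factors. Relative to all loci, 9 lists changed sign when the read minimum was 10 or 200 (small heat shock, antioxidant, auxin, MYB, helix-loop-helix, sugar transporter, glycosyltransferase, wall growth and receptor kinase lists), and seed storage moved from 1.22 to 0.06. Of the 131 called loci named in the text, 0 changed direction and 12 came within 2-fold: Os01g0200700, Os02g0181900, Os03g0322900, Os03g0805600 and Os06g0716700 with both factor sets, Os01g0580500 and Os11g0167800 with DESeq2 factors, and Os03g0136900, Os05g0137400, Os05g0231700, Os10g0356000 and Os12g0207600 without scaling.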

Other observations

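Gene groups outside the comparisons above differed as follows between 2 d and 3 d, as values without a test. ABC transporters, pumps that move metabolites and hormones across membranes, had 16 higher and 8 lower of 79 loci. The pleiotropic drug resistance protein 4 locus (Os01g0609900), with 787, 624, 2996 and 12852 reads (control, 1 d, 2 d, 3 d), was 4.55-fold higher (log2 ratio 2.18), and the PDR-like Os02g0528900, with 76491, 95131, 29078 and 91999 reads, was 3.35-fold higher (log2 ratio 1.75) after a low at 2 d. Receptor-like kinases, which perceive signals at the cell surface, had 33 lower (32.4%) and 11 higher (10.8%) of 102, near the 30.4% and 9.07% of all loci. Their summed share of reads was 0.292% in the control, 0.114% at 2 d and 0.124% at 3 d. Loci annotated as transposons had 28 lower and 4 higher of 61.

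Cytochrome P450 enzymes, with roles in hormone and secondary metabolism, were spread over both directions (23 higher and 42 lower of 148), with Os08g0508000 13.9-fold higher (log2 ratio 3.79) (22, 52, 637 and 8336 reads). Among UDP-glycosyltransferases, which attach sugars to small molecules, 38 were lower and 11 higher of 106, and Os02g0755900 with 32, 118, 2805 and 28580 reads was 10.8-fold higher (log2 ratio 3.43). Class III homeodomain-leucine zipper loci Os06g0722650 and Os06g0722300, which regulate leaf polarity in plants, had near-identical counts (1024, 1291, 645 and 56 reads and 999, 1332, 648 and 63 reads) and may share reads. They were 10.9-fold and 9.7-fold lower. Transcripts annotated as non-protein coding in the gene table lay near the median locus, with 91 higher and 292 lower of 1056. Pollen and root lists had 4 higher and 5 lower of 27 and 4 and 4 of 26. These counts do not check organ identity, for which the summed levels were given with the leaf check.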
